A study of Arabidopsis thaliana with 12 samples.

Results

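Seedlings of the Arabidopsis thaliana mutant hda9-1 were compared with wild-type seedlings of the accession Col-0, both 4 h after a spray with 50 µM abscisic acid (ABA). The comparison used 6 of the 12 samples of the series, 3 of hda9-1 and 3 of wild type, and every one of the 23911 genes in the table of counts, of which 20924 held enough counts to be tested. Seedlings were 2 to 3 weeks old and had grown on medium with 1% sucrose at 20 °C, in cycles of 16 h light and 8 h dark. The other 6 samples were seedlings of the same genotypes without ABA and served here as separate libraries of the same genotype contrast. Their column names give 0 h, and the series has no group at 4 h without ABA. Effects of ABA and of time therefore cannot be told apart. The sample titles gave the groups. A treatment field in the labels disagrees, since it gives no ABA for all wild-type samples and ABA for all hda9-1 samples. The series names 1 mutant allele and no complemented line, and its protocol mentions 8 buds without saying whether they were pooled. The titles call the samples biological replicates without naming separate cultures, and p-values therefore reflect only how far these samples spread.

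HDA9 is a histone deacetylase. It removes acetyl groups from histone tails, a change that usually goes with lower transcription of the gene, and it works in a complex with the SANT-domain protein POWERDRESS and the WD40 protein HOS15. Loss of HDA9 is known from earlier work to alter flowering time, leaf ageing and ABA catabolism. ABA is the hormone of drought and salt stress. It closes stomata, slows growth and switches on genes that protect cells against water loss, and the study's title names ABA together with redox control in chloroplasts and mitochondria.

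Messenger RNA was selected by its poly(A) tail and read in 75 bp reads, with 42703802 to 51054870 counts per library in the 6 samples after ABA. Levels are given as CPM, counts scaled to a fixed library total with TMM factors, in the order of replicates 1, 2 and 3, and differences as log2 fold changes of hda9-1 minus wild type with their standard error (SE). Calls rest on edgeR's quasi-likelihood test with Benjamini-Hochberg adjustment over all genes tested, at an adjusted p below 0.05. The hda9-1 libraries did not lie together. On the first principal component of the 6 libraries, which held 38.8% of the variance, wild type lay between -34.2 and -29.1, hda9-1 replicates 1 and 3 at 47.8 and 43.2, and hda9-1 replicate 2 at 3.59. The median SD within a group was 0.13 log2 in wild type and 0.21 log2 in hda9-1.

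Level also moved with the length of a gene's exons in the same libraries. Genes were put in 4 classes of about equal number by exon length. In the shortest class, of 96 to 1273 nt, the median log2 difference from the wild-type mean was 0.30 in hda9-1 replicate 1, -0.083 in replicate 2 and 0.33 in replicate 3. In the longest class, from 2369 nt, it was -0.099, 0.057 and -0.091. The wild-type libraries stayed between -0.028 and 0.038 in both classes. Of the shortest genes, 646 of 5211 were called higher and 82 lower, and of the longest, 249 of 5196 were called higher and 390 lower. Results on lists of short genes are therefore given beside the same count from a fit in which the dependence on exon length and GC content had been removed library by library. Without ABA, the median log2 fold change of the shortest class had the other sign, -0.14, against 0.20 after ABA.

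**Figure D1:**
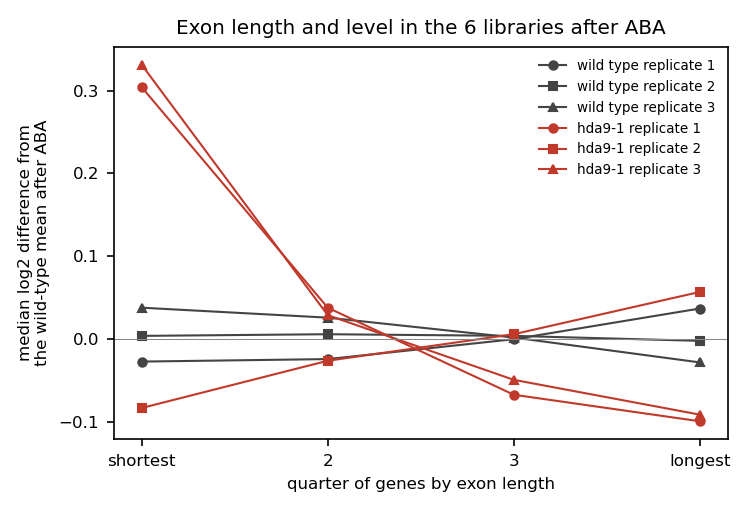
Median log2 difference of each of the 6 libraries after ABA from the mean of the wild-type libraries (y axis), for genes grouped in 4 classes by exon length (x axis), with wild type in grey and hda9-1 in red. hda9-1 replicates 1 and 3 sit at 0.30 and 0.33 for the shortest genes, whereas hda9-1 replicate 2 sits at -0.083, below all wild-type libraries.

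HDA9 itself was lower in all hda9-1 samples. Its gene (AT3G44680) lies on the minus strand of chromosome 3 at 16226519 to 16230009 in TAIR10.1. HDA9 had 16.8, 16.6 and 16.3 CPM in wild type and 5.26, 4.78 and 5.45 CPM in hda9-1. The groups lay far apart, with a log2 fold change of -1.68 ± 0.12, adjusted p = 6.7e-06. Its level in hda9-1 was 3.21-fold below wild type. The difference was -1.60 ± 0.12 in the samples without ABA (adjusted p = 1.2e-05). Among the 10 tested genes on each side of HDA9, AT3G44620 alone was called (log2 fold change 0.54 ± 0.093, adjusted p = 0.0025). Of all genes tested 12.7% were called.

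After ABA 2660 genes, 12.7% of those tested, were called between the genotypes. Of these 1570 (7.5% of the genes tested) were higher and 1090 (5.21%) lower in hda9-1. Most differences were modest. The median size of a called change was 0.513 log2, and 88 genes (0.421%) were called at least 2-fold higher against 160 (0.765%) called at least 2-fold lower. The 3 libraries of one genotype did not overlap those of the other at 6174 genes (29.5%), and 93.4% of called genes were among them. When only library size was used for scaling, the split was 1164 higher and 1372 lower, so which direction held more genes depended on the scaling. Leaving out each of the 6 libraries in turn kept 853 calls (32.1%) every time. The number called was 4640 without hda9-1 replicate 2, 1348 and 1560 without hda9-1 replicates 1 and 3, and 1075, 1328 and 1527 without wild-type replicates 1, 2 and 3.

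MRN1, UGT73C1 and CSD2 were the largest increases in hda9-1 among called nuclear genes that reached 5 CPM in the genotype with more and whose groups did not overlap. MRN1 (AT5G42600) encodes marneral synthase, an enzyme that makes a triterpene from a sterol precursor, and it had 0.356, 0.39 and 0.939 CPM in wild type and 2.54, 12.1 and 3.73 CPM in hda9-1. All hda9-1 libraries were above all wild-type libraries, and replicate 2 was the highest of them (log2 fold change 3.44 ± 0.71, adjusted p = 0.0092). UGT73C1 (AT2G36750), a glucosyltransferase gene, had 1.02, 0.876 and 1.54 CPM in wild type and 4.22, 4.66 and 7.59 CPM in hda9-1, again with no overlap (log2 fold change 2.26 ± 0.58, adjusted p = 0.025). CSD2 (AT2G28190), the plastid copper/zinc superoxide dismutase, had 65.5, 54.4 and 85.3 CPM in wild type and 391, 185 and 167 CPM in hda9-1. Its hda9-1 mean was 3.62-fold higher by the fitted fold change, and replicate 1 stood above the other two (log2 fold change 1.86 ± 0.42, adjusted p = 0.024). SEP3 (AT1G24260), a MADS-box transcription factor gene of floral organs, had 1.21, 2.41 and 2.71 CPM in wild type and 4.8, 6.08 and 8.34 CPM in hda9-1, so the highest wild-type library was below the lowest of hda9-1 (log2 fold change 1.59 ± 0.45, adjusted p = 0.036). None of these 4 calls held under every removal of a library.

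AT5G56370, an F-box protein gene, had 1.54, 2.45 and 1.73 CPM in wild type and 6.53, 5.19 and 8.43 CPM in hda9-1, with all hda9-1 libraries above 5 CPM and all wild-type libraries below 2.5 CPM (log2 fold change 1.81 ± 0.24, adjusted p = 5.8e-04). AT1G07050, of the CCT motif family, rose by 1.44 ± 0.28 and AT1G21520, of unknown function, by 1.25 ± 0.25 on the log2 scale. These 3 stayed called under each removal of a library. The other 5 of the 12 largest increases were AT4G01985, AT2G32190, which encodes a cysteine-rich transmembrane protein, the glycine-rich protein gene AT2G05510, the heavy metal domain gene AT1G51090, and AT3G23450. Their log2 fold changes were 1.82, 1.48, 1.25, 1.24 and 1.23. In all 5 hda9-1 replicate 2 was the lowest of the hda9-1 libraries, as in AT2G05510 with 39.6, 34.8 and 37.6 CPM in wild type and 113, 47.8 and 106 CPM in hda9-1. None of the 5 calls held under every removal of a library. After HDA9 the smallest p of all genes belonged to FIB4 (AT3G23400), a plastid fibrillin gene chosen here after its values were seen, with 87.1, 92.1 and 99.2 CPM in wild type and 207, 187 and 191 CPM in hda9-1 (log2 fold change 1.07 ± 0.092, adjusted p = 3.8e-05).

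HTA4 was the largest decrease under the same conditions, and cell wall enzyme genes were among the others. HTA4 (AT4G13570), a histone H2A gene, had 6.79, 5.65 and 5.39 CPM in wild type and 0.438, 1.09 and 1.19 CPM in hda9-1. Every hda9-1 library was below every wild-type library (log2 fold change -2.70 ± 0.36, adjusted p = 5.8e-04). XTH15 (AT4G14130) encodes a xyloglucan endotransglucosylase/hydrolase, which cuts and rejoins wall polymers, and it had 203, 198 and 231 CPM in wild type and 71.7, 45.2 and 65.7 CPM in hda9-1. The fitted level in hda9-1 was 3.46-fold lower, with no overlap (log2 fold change -1.79 ± 0.19, adjusted p = 4.2e-04). GH9B13 (AT4G02290), of a family of cellulases, had 43.2, 45.8 and 29.2 CPM in wild type and 8.21, 13.7 and 14 CPM in hda9-1 (log2 fold change -1.72 ± 0.22, adjusted p = 0.0011). AIR1 (AT4G12550), first described as induced by auxin in root cultures, had 4.58, 5.8 and 5.39 CPM in wild type and 1.08, 1.24 and 1.21 CPM in hda9-1 (log2 fold change -2.16 ± 0.58, adjusted p = 0.032), a call that was lost on removal of any 1 of the 6 libraries (adjusted p from 0.06 to 0.111).

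FRO2 (AT1G01580), the ferric chelate reductase of roots, had 53.9, 34.8 and 53.8 CPM in wild type and 15.6, 22.8 and 9.48 CPM in hda9-1. Both groups were wide, and they still did not overlap (log2 fold change -1.57 ± 0.41, adjusted p = 0.038). The remaining large decreases were the neighbours of HTA4 described below, AT2G05160, a CCCH zinc finger gene (-1.76), AT5G26270 (-1.76), AT1G34315 (-1.55), the FAD-linked oxidase gene AT1G30730 (-1.49), the leucine-rich repeat gene AT3G19230 (-1.47) and HDA9. Of the 12 largest decreases, all except AIR1 and FRO2 held whichever library was left out. PPC3 (AT3G14940), a phosphoenolpyruvate carboxylase gene also chosen after its values were seen, had 210.1 ± 5.86 CPM in wild type and 83.5 ± 15.3 CPM in hda9-1 (SD, n = 3), with no overlap (log2 fold change -1.33 ± 0.14, adjusted p = 2.1e-04).

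**Figure D2:**
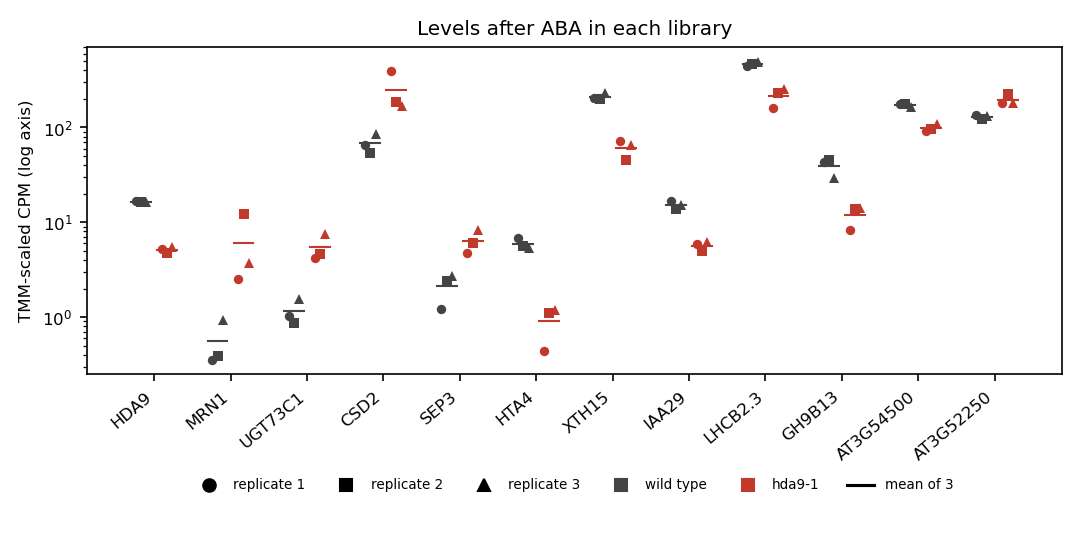
TMM-scaled CPM on a log axis for 12 genes in each of the 6 libraries after ABA, with wild type in grey, hda9-1 in red, a symbol for each replicate and a bar for the mean of 3. In each of the 12 genes the libraries of the genotypes are apart, and hda9-1 replicate 1 is the highest for CSD2 and replicate 2 for MRN1.

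The peroxiredoxin and thioredoxin genes were the redox group with the most calls. Peroxiredoxins reduce peroxides, and thioredoxins pass electrons to them and to other enzymes. Of 33 members tested, 16 rose (48.5%, against 7.5% of all genes tested), none fell, and 29 had a log2 fold change above 0, among them PER1 with no count in wild type. The median over members was 0.42, against 0.015 over all genes tested. These are short genes, with a median exon length of 1059 nt, and after removal of the length and GC trends 13 members were higher and 1 lower, with a median of 0.27. The median difference of the members from the wild-type mean was 0.54 in hda9-1 replicate 1, 0.16 in replicate 2 and 0.47 in replicate 3. Above the wild-type mean were 30, 22 and 27 of the 33 members in hda9-1 replicates 1, 2 and 3. The same share over all short genes was not counted, and the part of exon length in the rise was not tested. Under every removal of 1 library 8 of the 16 were still called. The number higher was 8 and 9 without wild-type replicates 1 and 2, and 9 without hda9-1 replicate 1 or 3. In the samples without ABA 8 members were called higher and 3 lower.

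The members that rose include enzymes of plastids, of the cytosol and of mitochondria. AT3G52960, annotated as a gene of the thioredoxin superfamily, had 72.5, 84.7 and 84.6 CPM in wild type and 134, 124 and 147 CPM in hda9-1 (log2 fold change 0.74 ± 0.12, adjusted p = 0.0014). The m-type thioredoxin gene ATHM2 (AT4G03520) had 235, 238 and 266 CPM in wild type and 403, 342 and 399.6 CPM in hda9-1 (log2 fold change 0.63 ± 0.10, adjusted p = 0.0016). The gene 2-Cys Prx B (AT5G06290), for a plastid peroxiredoxin, had 93.5, 103 and 93.1 CPM in wild type and 136, 133 and 141 CPM in hda9-1 (log2 fold change 0.50 ± 0.086, adjusted p = 0.0025). In all 3 genes every hda9-1 library was above every wild-type library, and the calls held under each removal of a library. The y-type thioredoxin gene ty2 (AT1G43560) rose by 0.79 ± 0.14, the catalytic subunit gene of ferredoxin-thioredoxin reductase, AT2G04700, by 0.59 ± 0.11, and sulfiredoxin (SRX, AT1G31170), which repairs overoxidised peroxiredoxins, by 0.58 ± 0.12. The plastid reductase gene NTRC (AT2G41680) rose by 0.35 ± 0.088, and its highest hda9-1 library was replicate 2, with 66.9, 72.8 and 67.1 CPM in wild type and 84.9, 94.6 and 83.4 CPM in hda9-1. Outside plastids, the cytosolic thioredoxin gene TRX2 (AT5G39950) rose by 0.49 ± 0.13 and the mitochondrial thioredoxin gene TO1 (AT2G35010) by 0.44 ± 0.14. In TRX2 hda9-1 replicate 2 lay within the range of wild type, with 31.3, 32.8 and 34.9 CPM in wild type and 50.4, 34.6 and 54 CPM in hda9-1.

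Superoxide dismutases and catalases also leaned upward. Superoxide dismutases turn superoxide into hydrogen peroxide, and catalases split hydrogen peroxide. Of 11 genes, which include the copper chaperone gene CCS, 6 rose and none fell, a share of 54.5% against 7.5% of all genes tested, and the median was 0.49. After removal of length and GC trends 3 were higher, and no call of the 6 held under every removal of a library. Without wild-type replicate 1, or without wild-type replicate 2, 1 member was higher, and without hda9-1 replicate 1, 2 were. Beside CSD2, the cytosolic enzyme gene CSD1 (AT1G08830) had 87.6, 75.2 and 103 CPM in wild type and 167, 123 and 122 CPM in hda9-1 (log2 fold change 0.63 ± 0.15, adjusted p = 0.014). The mitochondrial manganese enzyme gene MSD1 (AT3G10920) had 127, 134 and 135 CPM in wild type and 166, 168 and 169 CPM in hda9-1, a tight difference of 0.34 ± 0.084 (adjusted p = 0.016). FSD3 (AT5G23310), for an iron enzyme of plastids, rose by 0.74 ± 0.18, CSD3 (AT5G18100), for a peroxisomal copper/zinc enzyme, by 0.51 ± 0.12 and CAT1 (AT1G20630) by 0.35 ± 0.11. With length and GC trends removed, CSD1 (log2 fold change 0.40, adjusted p = 0.11) and CSD3 (0.22, adjusted p = 0.066) were no longer called. CCS (AT1G12520), whose product delivers copper to the copper/zinc enzymes, had 24.8, 22.8 and 31.5 CPM in wild type and 66, 45.9 and 32.1 CPM in hda9-1 and was not called (log2 fold change 0.86 ± 0.31, adjusted p = 0.097). CAT3 (AT1G20620), the catalase gene with the most counts, was lower in all hda9-1 libraries, with 5520.1, 5210.0 and 6059 CPM in wild type and 4172, 4826 and 4529 CPM in hda9-1, and was not called either (log2 fold change -0.31 ± 0.11, adjusted p = 0.077). The counts of the 11 genes together leaned the other way, with sums of 6880 to 7716 CPM in wild type and 6553 to 6863 CPM in hda9-1. Levels of some of these genes also spread widely within a genotype without ABA. CSD2 had 283, 219 and 141 CPM there in wild type and 143, 241 and 294 CPM in hda9-1. FSD1 (AT4G25100), an iron enzyme gene named after its values were seen, ran in the opposite order. It had 85.9, 197 and 408 CPM in wild type and 599, 378 and 196 CPM in hda9-1. After ABA FSD1 was not called (log2 fold change 0.49 ± 0.55, adjusted p = 0.61).

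CSD1, CSD2 and CCS are known targets of miR398, a microRNA that cleaves their transcripts. Small RNA was not measured here. The mature sequences and the best ungapped match in each transcript are shown because CSD2 was the largest increase among the redox genes named. Sequences were read from the TAIR10.1 genome at the coordinates of the RefSeq annotation, in DNA letters from 5′ to 3′. The microRNA lines have the seed (bases 2 to 8) in capitals, and the site lines have the bases that can form a Watson-Crick pair with the microRNA in capitals.
miR398a-3p (chr2:1041012-1041032, plus strand): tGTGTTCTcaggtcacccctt
miR398b-3p (chr5:4691107-4691127, plus strand, with the same letters as miR398c-3p at chr5:4694778-4694798): tGTGTTCTcaggtcacccctg
CSD1 site (chromosome 1, 2827177 to 2827685, plus strand, joined across an intron in the 5′ UTR): AAGGGGTttCCTGAGAtCACA
CSD2 site (chr2:12015572-12015592, plus strand, coding): tgcGGGTGACCTGgGAAacat
CCS site (chr1:4267521-4267541, minus strand, coding): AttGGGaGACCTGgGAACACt
The 3 microRNAs share 1 seed. Of the 21 bases 18 could pair in CSD1, 13 in CSD2, where 3 more could form G:U pairs, and 16 in CCS. The next best window elsewhere in the same transcript had 12, 12 and 11 paired bases, so by this count the CSD2 site stood out least. AT3G15640, a cytochrome c oxidase subunit gene that is a further known miR398 target, was named after its values were seen, and it had 38.7, 38.5 and 41.5 CPM in wild type and 45.4, 42.9 and 47.6 CPM in hda9-1 (log2 fold change 0.20 ± 0.082, adjusted p = 0.12).

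Other redox groups moved less, or in the other direction. Of 14 glutathione S-transferases, enzymes that join glutathione to reactive compounds, 4 rose (28.6%, against 7.5% of all genes) and none fell. All 4 were of the tau class. GSTU7 (AT2G29420) had 46.7, 49.6 and 54.9 CPM in wild type and 124, 75.3 and 103 CPM in hda9-1 (log2 fold change 1.00 ± 0.14, adjusted p = 0.0012), GSTU1 (AT2G29490) rose by 0.80 ± 0.15 and GSTU19 (AT1G78380) by 0.53 ± 0.11. These too are short genes, with a median exon length of 1165 nt, and the same number was called after removal of the trends. Over all 14, the median difference from the wild-type mean was 0.52 in hda9-1 replicate 1, 0.001 in replicate 2 and 0.51 in replicate 3. Without ABA 1 of the 14 was called higher and 2 lower, and the median log2 fold change was -0.02. Of the 28 genes of the ascorbate-glutathione cycle and glutathione peroxidases, 6 rose and 1 fell (21.4% and 3.57%, against 7.5% and 5.21% of all genes). The dehydroascorbate reductase genes DHAR2 (AT1G75270) and DHAR3 (AT5G16710) rose by 0.43 ± 0.10 and 0.36 ± 0.080, and the plastid glutathione reductase gene GR (AT3G54660) rose by 0.38 ± 0.085, with 155, 148 and 139.5 CPM in wild type and 197, 193 and 186 CPM in hda9-1. MDHAR (AT3G09940), a monodehydroascorbate reductase gene, fell by 1.11 ± 0.29 on the log2 scale. After removal of the trends 7 of the 28 were higher and 3 lower, and without ABA 5 were higher and 4 lower. Of the calls in this list, only those of DHAR3 and GR held under every removal of a library.

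NADPH oxidases make superoxide outside the plasma membrane. Of 8 tested, 4 fell in hda9-1 and none rose (50% fell, against 5.21% of all genes), every member had a log2 fold change below 0, and the median was -0.53. RBOHD (AT5G47910), the main oxidase of leaf defence and stress responses, had 33.8, 37.1 and 31.6 CPM in wild type and 22.5, 25.4 and 22.8 CPM in hda9-1 (log2 fold change -0.53 ± 0.11, adjusted p = 0.0052). AT4G25090, a further oxidase gene of this family, had 3.18, 3.82 and 3.28 CPM in wild type and 1.66, 2.17 and 2.05 CPM in hda9-1 (log2 fold change -0.80 ± 0.18, adjusted p = 0.0092), and RBOHB (AT1G09090) had 3.47, 2.3 and 4.8 CPM in wild type and 1.41, 1.96 and 1.12 CPM in hda9-1 (log2 fold change -1.22 ± 0.28, adjusted p = 0.013). The root hair gene RHD2 (AT5G51060, also RBOHC) fell by 0.61 ± 0.18 on the log2 scale. These are long genes, with a median exon length of 3236.5 nt, and the same number was lower after the trends were removed. Without ABA 5 of the 8 were called lower, and limma-voom called 2 after ABA. Without hda9-1 replicate 2 there were 6 after ABA, and without hda9-1 replicate 1 or 3, or wild-type replicate 3, there were 2.

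**Figure D3:**
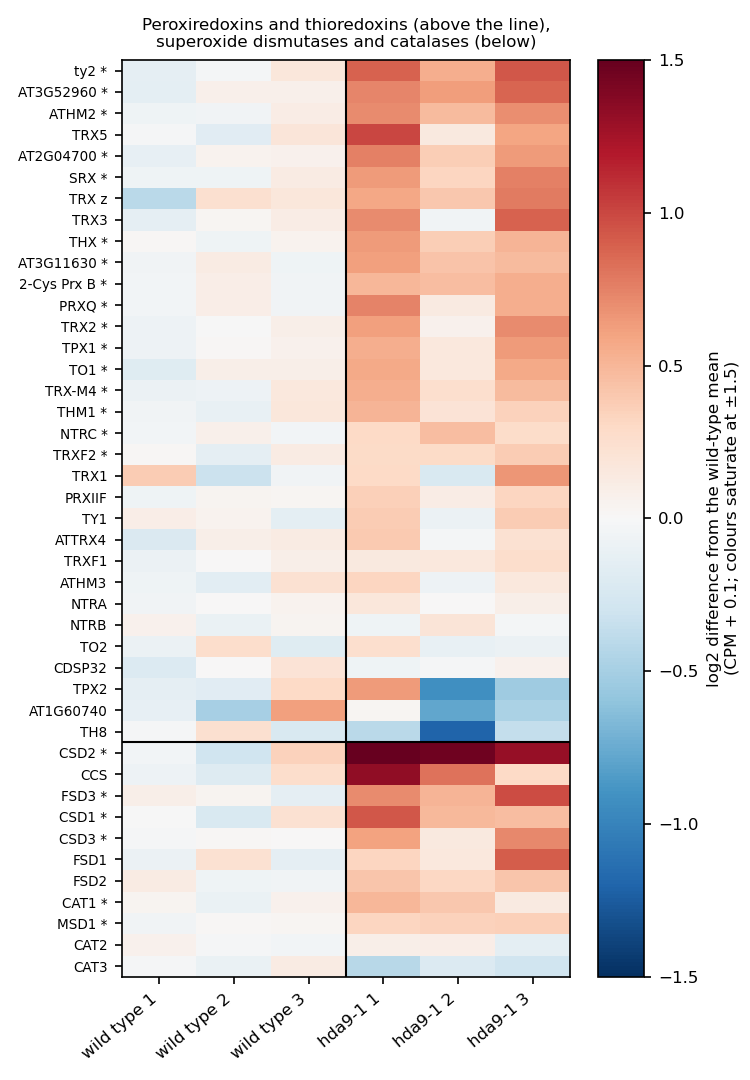
Log2 difference of each library after ABA from the wild-type mean, computed on CPM + 0.1, for the 43 peroxiredoxin, thioredoxin, superoxide dismutase and catalase genes with a wild-type mean of at least 1 CPM, 1 gene per line and 1 library per column. Asterisks mark called genes, colours saturate at 1.5, and most members are red in all 3 hda9-1 columns, with paler colours in replicate 2.

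Genes of the mitochondrion moved in part. AOX1A (AT3G22370), the stress-induced alternative oxidase, which lets electrons bypass the later steps of the respiratory chain, had 50.5, 52.8 and 63.3 CPM in wild type and 84.1, 84.3 and 79.2 CPM in hda9-1 (log2 fold change 0.57 ± 0.14, adjusted p = 0.018). The alternative dehydrogenase gene NDA2 (AT2G29990) had 21.4, 28.3 and 27.5 CPM in wild type and 48.2, 35.9 and 52.9 CPM in hda9-1 (log2 fold change 0.83 ± 0.14, adjusted p = 0.0019), whereas NDB1 (AT4G28220), of another class of these dehydrogenases, fell by 0.49 ± 0.10 on the log2 scale. They were the only called genes among 11 of alternative respiration (18.2% higher and 9.09% lower, against 7.5% and 5.21% of all genes). The calls of NDA2 and NDB1 held under each removal of a library, and that of AOX1A was lost without wild-type replicate 1 or 2 or hda9-1 replicate 1. Of 16 nuclear genes of the respiratory chain 3 rose (18.8%) and none fell. These were AT4G32470 (0.55 ± 0.11) and AT5G13440 (0.29 ± 0.090), both of the cytochrome bc1 complex, and CI51 (AT5G08530, 0.26 ± 0.077), of complex I. The call of AT4G32470 held under each removal of a library, while without wild-type replicate 1 or 2, or hda9-1 replicate 1 or 3, no second gene of the list was called. Of 8 mitochondrial stress markers 2 rose (25%) and none fell. The transcription factor gene NAC017 (AT1G34190), a regulator of the response to mitochondrial dysfunction, and the small heat shock protein gene AT5G51440 rose, by 0.27 ± 0.081 and 0.96 ± 0.29. Neither was called on removal of any single wild-type library or without hda9-1 replicate 1. All summed levels of the alternative respiration genes in hda9-1 were above those in wild type, with 191.3 to 218 CPM in wild type and 250.5 to 260.9 CPM in hda9-1.

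Among nuclear genes of photosynthesis, those that fell encode light-harvesting proteins of photosystem II. Of 51 genes 5 fell and 2 rose (9.8% and 3.92%, against 5.21% and 7.5% of all genes), and the median was 0.010. LHCB2.3 (AT3G27690) had 440.5, 473 and 492 CPM in wild type and 159, 230.3 and 254 CPM in hda9-1 and was 2.18-fold lower (log2 fold change -1.13 ± 0.19, adjusted p = 0.0034). LHCB2.1 (AT2G05100) had 1853 ± 150.4 CPM in wild type and 1216 ± 132 CPM in hda9-1 (SD, n = 3, log2 fold change -0.61 ± 0.12, adjusted p = 0.0043). LHCB2.2, LHCB3 and LHCB4.2 fell by 0.44 ± 0.10, 0.41 ± 0.10 and 0.36 ± 0.11 on the log2 scale. The LHCB2 genes are close copies of each other, so reads may have been divided among them in counting. NPQ4 (AT1G44575, also PSBS), whose protein sheds excess light energy as heat, rose by 0.35 ± 0.10, and PSAH-1 (AT3G16140), of photosystem I, by 0.52 ± 0.16. With library size alone 10 members were lower, after removal of length trends 8 were lower and 3 higher, and without hda9-1 replicate 2 the numbers were 8 higher and 6 lower. Without wild-type replicate 1, 2 or 3, or hda9-1 replicate 1 or 3, none was higher, and without wild-type replicate 1 or 3, or hda9-1 replicate 1, no more than 3 were lower. Summed over all 51 genes the genotypes overlapped, with 109700 to 121600 CPM in wild type and 107800 to 117100 CPM in hda9-1.

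Organelle genes gave few calls in these poly(A) libraries, where chloroplast genes held 0.102 to 0.199% of the counts after ABA and mitochondrial genes 0.00422 to 0.00825%. Of 78 chloroplast genes 2 were called higher, ATCG01310 (3.03 ± 0.78) and ATCG00830 (1.92 ± 0.60), and of 25 mitochondrial genes ATMG00980 was (4.04 ± 0.88). Their wild-type means were 0.257, 0.388 and 0.0362 CPM. The hda9-1 libraries of ATCG01310 ran from 0.551 to 4.92 CPM, with replicate 2 the highest. Without that library its log2 fold change was 1.4 and it was not called (adjusted p = 0.16). Neither chloroplast gene held under every removal of a library.

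**Figure D4:**
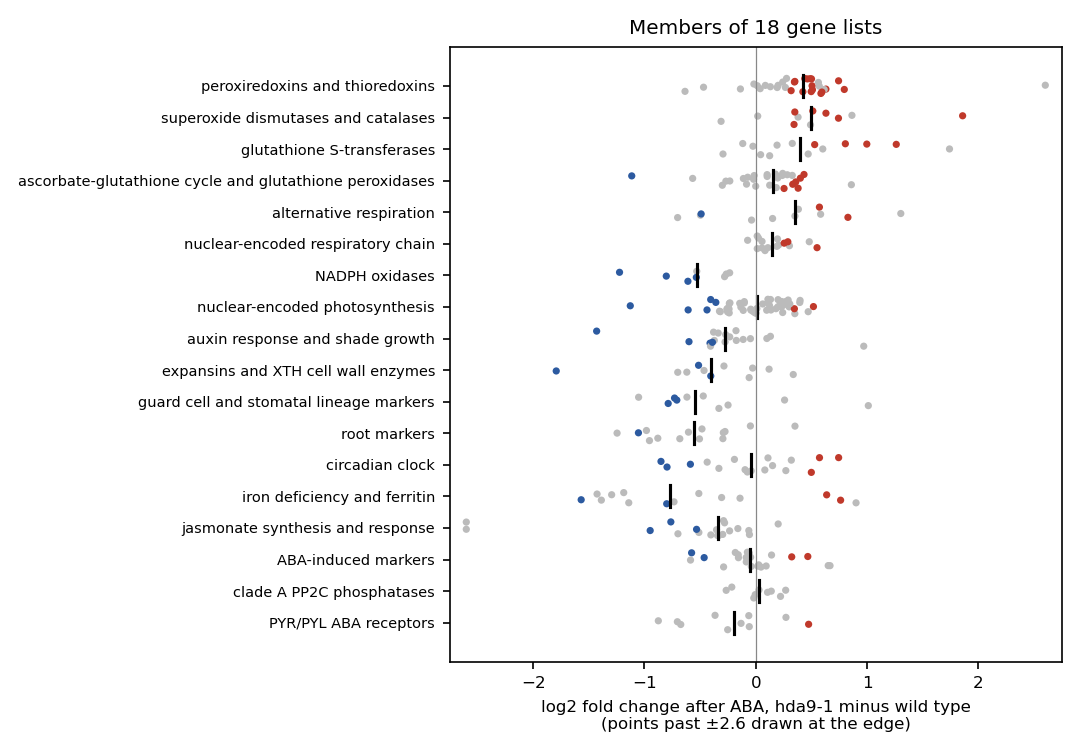
Log2 fold change after ABA of the tested members of 18 gene lists, 1 point per gene, with called increases in red, called decreases in blue, other genes in grey and the list's median as a black bar. The 3 points beyond 2.6 are drawn at the edge. Most members of the peroxiredoxin and thioredoxin list lie to the right of 0, and all NADPH oxidases lie to its left.

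In the core of ABA signalling the calls depended on the correction for gene length. None of the 9 clade A PP2C phosphatase genes, which restrain the pathway, was called in the main comparison. The smallest p among them was that of HAB1 (AT1G72770), with 300.1, 269 and 289 CPM in wild type and 326, 367 and 308 CPM in hda9-1 (log2 fold change 0.22 ± 0.089, adjusted p = 0.11). None of 8 SnRK2 kinase and ABA transcription factor genes was called either, and ABF2 (AT1G45249) had 63.2, 71.7 and 70.7 CPM in wild type and 70.2, 79.1 and 96.9 CPM in hda9-1 (log2 fold change 0.26 ± 0.11, adjusted p = 0.12). DESeq2 and limma-voom called none of these 17 genes either, and at an unadjusted p below 0.05 there were 3 phosphatase genes and ABF2. After removal of length and GC trends 3 of them were higher, HAB1 (adjusted p = 0.0084), ABF2 (adjusted p = 0.046) and the kinase gene SNRK2.2 (AT3G50500, adjusted p = 0.041). Without hda9-1 replicate 2 the phosphatase gene PP2CA (AT3G11410) was lower (adjusted p = 0.041), against a log2 fold change of -0.27 ± 0.12, adjusted p = 0.14 with all libraries. Of 10 receptor genes 1 rose (10%, against 7.5% of all genes), although 8 had a log2 fold change below 0 and the list's median was -0.19. This was RCAR3 (AT5G53160, also PYL8), with 103, 88.6 and 91.6 CPM in wild type and 163, 126 and 106 CPM in hda9-1 (log2 fold change 0.47 ± 0.13, adjusted p = 0.031). That call was lost on removal of any single wild-type library and without hda9-1 replicate 1. DESeq2 called 2 receptor genes lower, and 3 were called lower by edgeR without hda9-1 replicate 1.

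Of 22 ABA-induced marker genes 2 were higher and 2 lower (9.09% each, near the 7.5% higher and 5.21% lower of all genes), and the list's median was -0.050. LTI65 (AT5G52300, also RD29B), a gene of dehydration response, had 205, 159 and 179.7 CPM in wild type and 110.4, 134 and 121 CPM in hda9-1 (log2 fold change -0.58 ± 0.13, adjusted p = 0.014). RAB18 (AT5G66400), a dehydrin gene, had 177, 189.8 and 190.1 CPM in wild type and 129, 114 and 162 CPM in hda9-1 (log2 fold change -0.46 ± 0.14, adjusted p = 0.041). The homeobox genes HB-7 (AT2G46680) and HB-12 (AT3G61890) rose by 0.32 ± 0.10 and 0.47 ± 0.14. None of these 4 calls held under every removal of a library, and without hda9-1 replicate 1 or wild-type replicate 1 none of the list was called. Without ABA the marker list had 1 member higher and 6 lower, and LTI65 and RAB18 had log2 fold changes of -1.48 ± 0.28 and -1.13 ± 0.19.

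Of 14 genes of ABA synthesis and breakdown 1 was called higher and 1 lower (7.14% each, near the 7.5% and 5.21% of all genes). AAO3 (AT2G27150), the oxidase of the last step of ABA synthesis, rose, with 96.4, 97.6 and 100.5 CPM in wild type and 127, 134 and 119.6 CPM in hda9-1 (log2 fold change 0.37 ± 0.080, adjusted p = 0.0082). CYP707A1 (AT4G19230), an ABA 8′-hydroxylase that inactivates the hormone, fell, with 89.1, 95.8 and 104 CPM in wild type and 73.1, 80 and 68.3 CPM in hda9-1 (log2 fold change -0.38 ± 0.12, adjusted p = 0.04). Of 7 genes described in the literature as HDA9 targets it was the only one called (14.3%, near the 12.7% of all genes called in either direction). Its call was lost with length and GC trends removed (adjusted p = 0.053). In that fit 2 other targets were higher, the clock gene GI (AT1G22770, adjusted p = 0.0064) and the autophagy gene APG9 (AT2G31260, adjusted p = 0.017). The call of AAO3 held whichever library was left out, whereas that of CYP707A1 was lost on removal of any single library other than hda9-1 replicate 2. Of 11 osmolyte genes, GolS1 (AT2G47180), a galactinol synthase gene of raffinose synthesis, was the only one called (log2 fold change -0.52 ± 0.14, adjusted p = 0.023). That is 9.09% lower, against 5.21% of all genes.

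The partners of HDA9 were higher in the mutant. AT3G52250, annotated as a duplicated homeodomain-like protein and listed here for POWERDRESS, had 134, 124 and 133 CPM in wild type and 182, 223 and 182 CPM in hda9-1 (log2 fold change 0.59 ± 0.10, adjusted p = 0.0021). HOS15 (AT5G67320) had 74.4, 78.8 and 72.2 CPM in wild type and 87.4, 90.2 and 91.4 CPM in hda9-1, a small difference without overlap (log2 fold change 0.26 ± 0.080, adjusted p = 0.048). The call of HOS15 was lost on removal of any single wild-type library and without hda9-1 replicate 1, and that of AT3G52250 held throughout. None of the other 12 deacetylase genes tested was called in the main edgeR fit. The list as a whole, HDA9 and its partners included, had 2 members higher and 1 lower there. It had 3 higher and 1 lower with length and GC trends removed, and 4 higher and 1 lower with the replicate block as well. Without hda9-1 replicate 2, and also with DESeq2, 2 were higher and 2 lower. HDA14 (AT4G33470) came nearest to the threshold (log2 fold change 0.30 ± 0.10, adjusted p = 0.052), and HDA6 and HD1 (also HDA19) had values of 0.21 ± 0.10 and -0.12 ± 0.090.

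Of the growth genes of auxin and shade, 4 of 18 fell in hda9-1 and none rose (22.2% against 5.21% of all genes), 15 had a log2 fold change below 0, and the median was -0.27. IAA29 (AT4G32280), an Aux/IAA gene induced in shade, had 16.7, 13.8 and 15.3 CPM in wild type and 5.91, 4.94 and 6.13 CPM in hda9-1 (log2 fold change -1.43 ± 0.17, adjusted p = 3.0e-04). PIL6 (AT3G59060, also PIF5), a phytochrome-interacting transcription factor gene, had 185, 186 and 190.1 CPM in wild type and 142, 159 and 127 CPM in hda9-1 (log2 fold change -0.39 ± 0.088, adjusted p = 0.01). The auxin carrier gene PIN3 (AT1G70940) fell by 0.41 ± 0.12 and the auxin synthesis gene YUC9 (AT1G04180) by 0.60 ± 0.19 on the log2 scale. PIF4 (AT2G43010), the nearest relative of PIL6, was not called (log2 fold change -0.18 ± 0.10, adjusted p = 0.27). Beside XTH15, the cell wall genes EXPA1 (AT1G69530) and XTH19 (AT4G30290) fell, by 0.51 ± 0.13 and 0.40 ± 0.12, the only other called genes of 11 expansin and XTH genes. Of these 11 genes 27.3% were lower, against 5.21% of all genes. Without ABA 7 auxin and shade genes were lower and none higher. After ABA 2 remained lower on removal of any single wild-type library or hda9-1 replicate 1, and IAA29 and PIL6 held throughout.

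Of 10 guard cell and stomatal lineage markers 3 fell and none rose (30% fell, against 5.21% of all genes). FMA (AT3G24140, also FAMA), the transcription factor gene of guard cell fate, had 23.7, 24.3 and 24.3 CPM in wild type and 11.6, 14.9 and 15.5 CPM in hda9-1 (log2 fold change -0.79 ± 0.11, adjusted p = 8.5e-04). The potassium channel gene KAT1 (AT5G46240) had 21.1, 21.9 and 21.9 CPM in wild type and 11.8, 12.9 and 15 CPM in hda9-1 (log2 fold change -0.71 ± 0.12, adjusted p = 0.0025), and the anion channel gene OZS1 (AT1G12480, also SLAC1) had 11.2, 11.5 and 13.3 CPM in wild type and 6.62, 8.55 and 6.53 CPM in hda9-1 (log2 fold change -0.73 ± 0.23, adjusted p = 0.045). All 3 genes were separated between the genotypes. The early lineage genes SPCH, MUTE, TMM and EPF2 had log2 fold changes of -0.62 ± 0.28, 0.26 ± 0.52, -0.25 ± 0.15 and 1.01 ± 0.47, none called. The calls of FMA and KAT1 held under each removal of a library, and that of OZS1 was lost on removal of any single wild-type library or hda9-1 replicate 1. The levels of the 10 genes summed to 79.38 to 81.31 CPM in wild type and 46.88 to 58.43 CPM in hda9-1. Without ABA the median log2 fold change of the list was -0.13, against -0.54 after ABA, and 1 member was called lower. There FMA had -0.17 ± 0.11 and OZS1 -0.087 ± 0.24, neither called, while KAT1 had -0.46 ± 0.12 (adjusted p = 0.02). In whole seedlings, fewer cells of a type and less RNA per cell cannot be told apart, and neither was tested.

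Of 14 root markers 1 fell (7.14%, near the 5.21% of all genes). CASP2 (AT3G11550), a Casparian strip gene of the endodermis, fell, with 6.2, 6.56 and 6.43 CPM in wild type and 3.25, 3.12 and 2.87 CPM in hda9-1 (log2 fold change -1.05 ± 0.19, adjusted p = 0.0032). Although it was the only one called, 13 of the 14 had a log2 fold change below 0 and the median was -0.56. The sum of the root markers was 169.8 to 212.8 CPM in wild type and 112.5 to 152.4 CPM in hda9-1, without overlap. Its part in the results on FRO2, AIR1, RHD2 and the iron genes, which are active in roots, was not tested. Markers of flowers and seeds had low counts. The 3 floral markers tested summed to 1.401 to 3.612 CPM in wild type and 5.491 to 8.889 CPM in hda9-1, carried by SEP3, and the 6 seed maturation genes tested to 11.35 to 14.22 CPM in wild type and 12.3 to 17.33 CPM in hda9-1, of which DOG1 (AT5G45830), a dormancy gene, fell (log2 fold change -0.76 ± 0.22, adjusted p = 0.036).

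Of 14 iron genes 2 rose and 2 fell (14.3% each, against 7.5% and 5.21% of all genes). The ferritin genes FER3 (AT3G56090) and FER4 (AT2G40300), whose proteins store iron in plastids, rose by 0.64 ± 0.17 and 0.76 ± 0.20, as in FER3 with 28.9, 31.5 and 25.3 CPM in wild type and 43.3, 41.7 and 48.2 CPM in hda9-1. FER1 (AT5G01600), a further ferritin gene, was higher in every hda9-1 library, with 293 to 333 CPM in wild type and 497 to 678 CPM in hda9-1, but was not called (log2 fold change 0.90 ± 0.34, adjusted p = 0.11). On the side of iron uptake FRO2 and its regulator FRU (AT2G28160, also FIT) fell, the latter by 0.80 ± 0.25 on the log2 scale (adjusted p = 0.049). The iron transporter gene IRT1 (AT4G19690) had 37, 25.2 and 40.5 CPM in wild type and 14.3, 17.8 and 7.06 CPM in hda9-1 (log2 fold change -1.39 ± 0.40, adjusted p = 0.052). The 4 iron-responsive bHLH genes bHLH38, bHLH39, BHLH100 and BHLH101 had log2 fold changes from -1.43 to -1.14, and none was called. A fit on the 6 libraries alone called 7 iron genes lower and 3 higher. Of the 14 iron genes 9 were lower without overlap and 3 higher without overlap, against 29.5% of all genes without overlap in either direction. Neither ferritin increase was called without wild-type replicate 1 or 3 or hda9-1 replicate 1 or 3, and neither decrease on removal of any single wild-type library or hda9-1 replicate 3.

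Clock genes moved in both directions. CCA1 (AT2G46830), a morning gene, had 18.2, 19.4 and 17.7 CPM in wild type and 8.38, 12 and 10.2 CPM in hda9-1 (log2 fold change -0.85 ± 0.17, adjusted p = 0.0054). AT3G54500, listed here for LNK2, had 177, 176 and 163 CPM in wild type and 90.9, 96.8 and 109 CPM in hda9-1 (log2 fold change -0.80 ± 0.14, adjusted p = 0.0028), and PRR9 (AT2G46790) fell by 0.59 ± 0.12. The evening genes PCL1 (AT3G46640, also LUX) and ELF4 (AT2G40080), whose products act together to repress transcription at dusk, rose by 0.57 ± 0.13 and 0.74 ± 0.19, and FKF1 (AT1G68050) by 0.50 ± 0.15. So 3 of 17 genes were higher and 3 lower (17.6% each, against 7.5% and 5.21% of all genes), and the 3 decreases but none of the increases held whichever library was left out. ELF4 is a short gene, with 619 nt of exons. Its log2 fold change was 0.43 after removal of the length and GC trends, and its call was lost (adjusted p = 0.058). Of 14 flowering regulators 2 rose (14.3%). AGL20 (AT2G45660, also SOC1), an activator of flowering, had 66.3, 56.8 and 75 CPM in wild type and 103, 99.1 and 79.3 CPM in hda9-1 (log2 fold change 0.51 ± 0.12, adjusted p = 0.016). FT (AT1G65480), the mobile flowering signal, was called at a very low level, with 0.332, 0.0389 and 0.0418 CPM in wild type and 0.508, 0.81 and 0.662 CPM in hda9-1 (log2 fold change 2.29 ± 0.71, adjusted p = 0.044), and its groups did not overlap. The call of AGL20 was lost without wild-type replicate 1 or 2 or hda9-1 replicate 1. That of FT was lost after removal of the trends (adjusted p = 0.052) and on removal of any single library other than wild-type replicate 1.

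Few genes were called in the lists of defence hormones and other stresses. OPR3 (AT2G06050), a peroxisomal enzyme of jasmonate synthesis, had 17.2, 21.5 and 18.7 CPM in wild type and 8.35, 10.7 and 10.7 CPM in hda9-1 (log2 fold change -0.95 ± 0.13, adjusted p = 7.7e-04), and the jasmonate repressor genes TIFY7 (AT1G70700, also JAZ9) and JAZ6 (AT1G72450) fell by 0.76 ± 0.17 and 0.53 ± 0.16. That made 3 of 19 jasmonate genes lower (15.8%, against 5.21% of all genes) and none higher. The call of JAZ6 was lost after removal of the trends (adjusted p = 0.08), and OPR3 alone was called without hda9-1 replicate 1. SARD1 (AT1G73805) and CBP60G (AT5G26920), activators of salicylic acid synthesis, rose by 1.31 ± 0.37 and 0.56 ± 0.17, while ALD1 (AT2G13810), which makes a precursor of the immune signal pipecolic acid, had -1.46 ± 0.41. They were the called genes of 15 in that list (13.3% higher and 6.67% lower, against 7.5% and 5.21% of all genes). SARD1 and CBP60G were not called on removal of any single library other than hda9-1 replicate 2. The call of ALD1 was lost on removal of any single wild-type library or of hda9-1 replicate 2 or 3. Single calls came from BCAT4 (AT3G19710) of 12 glucosinolate genes (-0.87 ± 0.17), SAG29 (AT5G13170) of 15 senescence genes (0.60 ± 0.16) and ERF6 (AT4G17490) of 16 cold, touch and early stress genes (0.82 ± 0.24). These were 8.33% lower, 6.67% higher and 6.25% higher, against 5.21% lower and 7.5% higher of all genes. The genotypes overlapped for SAG29, and its call was lost without wild-type replicate 1 or hda9-1 replicate 2 or 3. That of ERF6 was lost on removal of any single wild-type library or hda9-1 replicate 1. None of 14 heat shock genes, 12 mitotic genes and 9 flavonoid genes was called in the main edgeR fit, by DESeq2 or by limma-voom. In the main fit 1, 0 and 2 of them had an unadjusted p below 0.05. Their smallest p belonged to HSP70 (AT3G12580, 0.23 ± 0.10, adjusted p = 0.15), CYCB1;1 (AT4G37490, -0.40 ± 0.22, adjusted p = 0.24) and F3H (AT3G51240, -0.41 ± 0.17, adjusted p = 0.12). With trends removed and hda9-1 replicate 2 left out, 1 heat shock gene was higher, and without a filter 1 flavonoid gene was lower.

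Called genes were spread over the genome, with 12.3 to 13.1% of tested genes called on each of the 5 chromosomes. The longest run of neighbouring genes that were called at least 2-fold in the same direction held 3 genes on chromosome 4, HTA4 (7884516 to 7885982), AT4G13572 (7887440 to 7888748) and AT4G13575 (7890249 to 7893761). AT4G13575 had 16.5, 20.2 and 12.2 CPM in wild type and 2.81, 4.56 and 4.72 CPM in hda9-1 (log2 fold change -2.01 ± 0.26, adjusted p = 6.0e-04) and AT4G13572 had 3.28, 4.23 and 2.61 CPM in wild type and 1.02, 0.567 and 1.43 CPM in hda9-1 (log2 fold change -1.75 ± 0.33, adjusted p = 0.0042). All 3 genes were separated between the genotypes, held whichever library was left out, and were also lower without ABA, with log2 fold changes of -2.62, -2.33 and -2.29. The next gene upstream of HTA4, UNE15 (AT4G13560), of the late embryogenesis abundant family, had 0.926, 1.54 and 0.898 CPM in wild type and 0, 0.121 and 0.375 CPM in hda9-1 and was not called (log2 fold change -2.74 ± 0.94, adjusted p = 0.069). There were 5 further runs, of 2 genes each. One of them joined MRD1 (AT1G53480) and HEI10 (AT1G53490), which overlap on opposite strands. MRD1 had 40 counts over the wild-type libraries and 0 over those of hda9-1, at least 13-fold lower when the empty group is set to a floor of 3 counts, and HEI10 had 2.99, 3.19 and 2.94 CPM in wild type and 2.21, 0.81 and 1.1 CPM in hda9-1 (log2 fold change -1.15 ± 0.33, adjusted p = 0.034). The kit kept the strand, but whether the counting used it is not stated, so reads of such an overlap cannot be assigned. The same holds for XTH15, LHCB2.3, PCL1, SARD1, BCAT4 and CSD1, which share 382, 595, 1507, 640, 307 and 211 bp with a gene on the other strand. UNE15, MRD1 and HEI10 were named after their values were seen.

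The same contrast without ABA came from 6 other libraries, with which the samples after ABA share no control. There 1461 genes (6.98%) were called higher and 1374 (6.57%) lower. Of the genes called after ABA, 1095 were also called in the same direction without ABA, 644 higher and 451 lower, which is 41.2% of the calls after ABA and 38.6% of those without. In the opposite direction 1 gene, CDT1 (AT1G52827), a short gene with 575 nt of exons, was called. The sign was shared by 88.6% of the genes called after ABA and by 67.2% of all genes tested. Across genes the log2 fold changes of both contrasts correlated at Pearson r = 0.41 and Spearman rho = 0.46 over 20924 genes, which share libraries and are not independent.

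**Figure D5:**
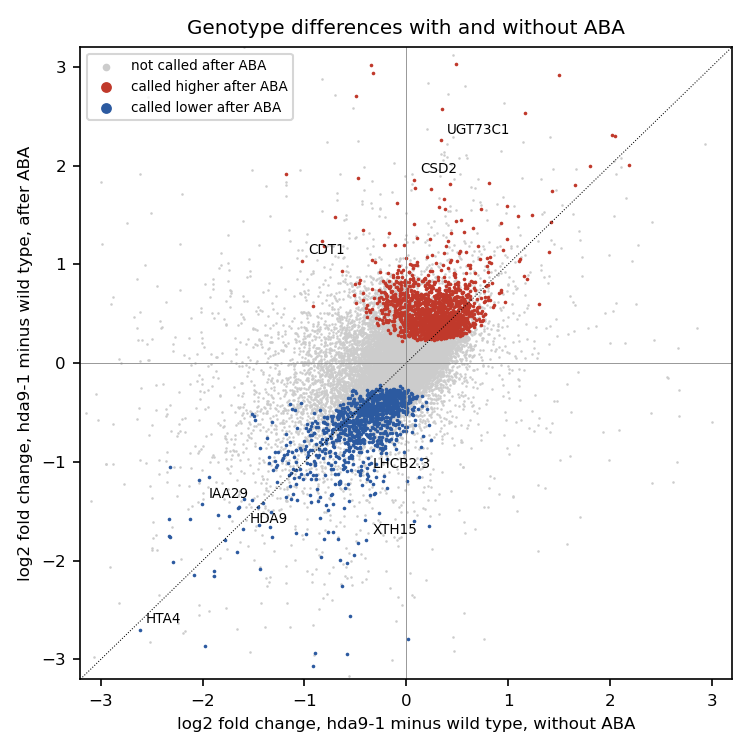
Log2 fold change of hda9-1 minus wild type after ABA (y axis) against that without ABA (x axis) for 20804 genes, with genes called after ABA in red or blue and the dotted line marking equal differences. Another 120 genes lie outside the axes, which end at 3.2, and HDA9 and HTA4 lie near the line while CSD2, UGT73C1 and XTH15 lie between -0.39 and 0.34 on the x axis.

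Whether the genotype difference after ABA differed from that without ABA was tested as an interaction. In this test ABA and the time of sampling cannot be told apart. No gene was called by edgeR (0%), with a smallest adjusted p of 0.056, while 2467 genes (11.8%) had an unadjusted p below 0.05. DESeq2 called 129 and limma-voom 0. This count moved with 1 library, since 1612 genes were called without hda9-1 replicate 2 after ABA, and 270 without it when length and GC trends were removed as well. Among genes called after ABA, the smallest p for the difference belonged to HTA10, CDT1, AT5G24165, SDH3-2, AT5G54760 and XTH15. Their exon lengths, 575 to 1207 nt, lie in the shortest class, whose median log2 fold change was 0.20 after ABA and -0.14 without it. With length and GC trends removed, their log2 fold changes after ABA were 0.325, 0.68, 0.58, 0.66, 0.67 and -1.89, all still called. The part of exon length in their differences of effects was not tested. XTH15 had a log2 fold change of -0.39 ± 0.19 without ABA, and its difference of effects was -1.40 ± 0.27 (adjusted p = 0.19). CDT1, which encodes a small cysteine-rich protein of cadmium tolerance, had 9.09, 9.44 and 9.52 CPM in wild type and 21.2, 10.3 and 26 CPM in hda9-1 after ABA (log2 fold change 1.04 ± 0.24, adjusted p = 0.015) and -1.02 ± 0.27 without it, a difference of 2.06 ± 0.36 (adjusted p = 0.14). The histone H2A gene HTA10 (AT1G51060) had 0.55 ± 0.11 after ABA and -0.34 ± 0.11 without it, and the succinate dehydrogenase subunit gene SDH3-2 (AT4G32210) had 0.77 ± 0.14 and -0.16 ± 0.14. CSD2 had 0.073 ± 0.41 without ABA, and its difference of effects, 1.78 ± 0.58, did not pass the threshold (adjusted p = 0.33).

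Letters of known promoter elements were counted in the 250 bases upstream of each gene's start, on both strands, in 20792 tested genes with such a window. The site II element of genes active in growing cells (TGGGCC) was in 15.9% of all windows, in 24% of those of genes called higher and in 9.47% of those of genes called lower. It was not more frequent among genes called at least 2-fold higher, with 12.9%. Within the shortest length class it was in 17.8% of all and in 27.6% of those called higher, and among longer genes in 15.3% and 21.4%. The evening element of clock-controlled genes (AAAATATCT) was in 2.49% of all windows, 4.15% of those of genes called higher and 2.39% of those called lower. It was in 8 of 85 windows of genes called at least 2-fold higher (9.41%) and in 2 of 160 of those called at least 2-fold lower (1.25%). The G-box (CACGTG) was in 7.34%, 6.26% and 8.36% of all, higher and lower genes. The ABA-response element variants ACGTGGC and ACGTGTC, both of which can overlap a G-box, were in 3.84% and 4.19% of all, 4.28% and 4.35% of higher and 4.14% and 3.58% of lower genes. The telo-box (AAACCCTA) was in 3.47%, 4.22% and 2.3%. It was in 4 of 85 windows of genes called at least 2-fold higher (4.71%) and in 8 of 160 of those called at least 2-fold lower (5%). These shares are descriptions without a test, and a match is not a shown binding site.

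Windows of 6 named genes that hold an element are given below with the element in capitals, from TAIR10.1 and 5′ to 3′ on the gene's strand, ending at the base before the gene's start. The first 3 hold the evening element and belong to large increases, the next 2 hold site II in genes that rose, and the last holds a G-box in a gene that fell. The last window, of LHCB2.3, also holds the ABA-response element variant ACGTGTC, which is left in lower case.
UGT73C1 (chr2:15412065-15412314, minus strand): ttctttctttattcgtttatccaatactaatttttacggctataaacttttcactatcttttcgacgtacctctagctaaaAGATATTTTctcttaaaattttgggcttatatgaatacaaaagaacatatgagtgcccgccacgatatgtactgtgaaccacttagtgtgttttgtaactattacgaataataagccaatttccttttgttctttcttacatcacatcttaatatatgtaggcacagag
SEP3 (chr1:8596124-8596373, minus strand): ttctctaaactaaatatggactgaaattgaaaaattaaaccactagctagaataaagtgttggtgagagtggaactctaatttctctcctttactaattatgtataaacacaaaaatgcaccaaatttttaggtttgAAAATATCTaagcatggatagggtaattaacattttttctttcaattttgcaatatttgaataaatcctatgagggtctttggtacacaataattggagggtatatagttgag
AT3G23450 (chr3:8409798-8410047, plus strand): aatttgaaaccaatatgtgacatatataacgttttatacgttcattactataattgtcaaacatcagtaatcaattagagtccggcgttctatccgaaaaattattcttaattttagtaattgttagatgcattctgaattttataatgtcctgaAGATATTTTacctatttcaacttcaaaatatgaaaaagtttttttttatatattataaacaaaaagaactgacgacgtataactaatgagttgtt
AT3G52960 (chr3:19639299-19639548, plus strand): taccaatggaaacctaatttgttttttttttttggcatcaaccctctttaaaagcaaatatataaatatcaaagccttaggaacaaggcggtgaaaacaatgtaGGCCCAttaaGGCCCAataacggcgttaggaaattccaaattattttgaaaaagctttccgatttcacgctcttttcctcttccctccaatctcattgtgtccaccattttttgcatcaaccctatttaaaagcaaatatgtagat
AT5G56370 (chr5:22837973-22838222, minus strand): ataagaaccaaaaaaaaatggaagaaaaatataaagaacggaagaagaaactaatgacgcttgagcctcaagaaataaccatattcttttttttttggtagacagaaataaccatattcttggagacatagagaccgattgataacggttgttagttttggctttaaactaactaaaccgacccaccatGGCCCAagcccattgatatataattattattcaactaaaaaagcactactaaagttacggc
LHCB2.3 (chr3:10255656-10255905, plus strand): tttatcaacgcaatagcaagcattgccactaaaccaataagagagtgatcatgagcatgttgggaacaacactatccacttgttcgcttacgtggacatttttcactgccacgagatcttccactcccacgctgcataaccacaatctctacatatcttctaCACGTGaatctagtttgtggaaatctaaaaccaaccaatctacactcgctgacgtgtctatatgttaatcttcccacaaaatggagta
AT3G52960, with 2 matches to site II, rose by 0.74 on the log2 scale after ABA and by 0.42 without it. UGT73C1 had values of 2.26 and 0.34, AT3G23450 of 1.23 and -0.82, and LHCB2.3 of -1.13 and -0.39.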

How the data were processed

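The authors deposited 1 table of whole-number counts per gene for 12 samples. The submitters' processing notes name Bowtie2, Salmon, limma 3.56 and the TAIR10 build, and the tool that made the counts is not given in the sources used here, so they may be rounded estimates. Per the labels, libraries were stranded and poly(A)-selected, from 1 µg of RNA with 7 PCR cycles. Totals over all 12 libraries ran from 42703802 to 52820930 counts.

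The deposited counts went into edgeR 4.0.16 (R 4.3.3) after filterByExpr (minimum count 10, minimum total 15), which kept 20924 genes holding 99.99% of counts. TMM factors and 1 robust quasi-likelihood fit of 4 group means to all 12 samples were used, with two-sided tests and an adjusted p below 0.05. The SE was derived from the fold change and its F statistic. Replicate libraries differed by more than sampling noise (chi-square of at least 13.9 per gene), so none was merged. The method was tested on simulated data. IDs were matched to the TAIR10.1 annotation, with a record for 23655 of 23911 genes.

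The comparison, the gene lists and the genes printed in full were chosen with earlier results of these data known. Named genes were HDA9, the 12 largest increases and decreases among called nuclear genes reaching 5 CPM in the genotype with more and without overlap, up to 3 called members of each list in its commoner direction and 1 in the other (or the smallest p), 6 genes by the p of the interaction, and the longest run of neighbours. Other list members and genes said to be chosen after their values were seen were added. Alternatives were other scalings, filters and tools (limma-voom with limma 3.58.1, DESeq2 1.42.0), a fit on 2 groups, the replicate number as a block, removal of length and GC trends, a fit without organelle genes, removal of 1 library at a time, and a stricter threshold of 0.01.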

Additional observations from a re-analysis of the deposited data

How the results depend on the processing

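HDA9 kept its direction and its call under all alternatives run. Of 1971 values of the 99 named called genes under the alternatives, 1588 stayed called, 383 did not and none changed sign, and 42 of the 99 genes stayed called throughout. The main count was 2660 (1570 higher, 1090 lower). A fit on the 2 groups alone gave 1433 (818 higher, 615 lower), with fewer samples for the spread. An adjusted p below 0.01 gave 867 (533 higher, 334 lower), and 986 without ABA against 2835. DESeq2 called 1914 higher and 1732 lower. Leaving out 1 library gave 1075 to 4640 called, 630 to 2550 higher and 445 to 2090 lower, with the highest values without hda9-1 replicate 2, and the cause was not tested. Removal of length and GC trends gave 2138 higher and 1149 lower, and 2533 higher and 1301 lower without that library. The shares called higher were 53, 49.6 and 45.9% with RLE, upper-quartile and library-size scaling, against 59%. For the difference of the genotype effects, edgeR called 0 in the main fit, 1 with upper-quartile factors, 1 with library size alone, 1 without a filter, 6 with trends removed, 270 with trends removed and hda9-1 replicate 2 left out, and 0 to 1612 with 1 library left out, and DESeq2 called 129. Replicate numbers are shared between groups. After ABA, deviations of same-numbered samples from their group means correlated across genes at 0.032, -0.081 and -0.125. With means of 3 samples this cannot show whether the numbers mark something shared. With the replicate block 2344 genes were called (1372 higher, 972 lower), and 1928 higher and 1038 lower with the block and trends removed. With 3 samples a group, small differences of low-count genes cannot be told from the spread.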
